A study of Sus scrofa with 8 samples.

Results

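Collagen chain genes were described in left ventricular muscle of pigs that had a myocardial infarction and then received either no treatment or glial growth factor 2 (GGF2). The 5 genes were COL1A2, COL3A1, COL5A1, COL8A1 and COL15A1. Their members were all probe sets whose single gene symbol in the platform annotation was 1 of these, which gave 14 of the 23999 probe sets tested and 5 of the 6765 genes named. COL1A2 had 2 probe sets, COL3A1 had 1, COL5A1 had 6, COL8A1 had 4 and COL15A1 had 1. The 5 genes were selected on earlier results of these same log2 values, in which the high-dose animals differed, so every difference that involves the high-dose animals is given as a description, with no p-value for these genes.

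GGF2 is an isoform of neuregulin-1, which acts on heart muscle through ERBB receptors. All 8 animals were castrated male Yorkshire pigs under 1 year of age, with a mean weight of 54.5 kg, and all had an infarct; no animal without an infarct was analysed here. The muscle was taken away from the infarct, in the region called remote. The groups were 3 untreated animals, 3 low-dose animals, whose infusions each held 0.67 mg/kg GGF2, and 2 high-dose animals, at 2.0 mg/kg per infusion, both over 4 weeks, and each animal's RNA was run on its own Affymetrix porcine array. Values are log2 RMA values, so a difference of 1 is a doubling of the signal.

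Collagens are secreted proteins of 3 polypeptide chains wound into a triple helix. Fibroblasts make most of the collagen of the heart, and after an infarct collagen is laid down in the scar and, to a lesser degree, in the muscle away from it. COL1A2 encodes a chain of type I collagen and COL3A1 the chain of type III collagen, which together form most of the fibrils of heart muscle. COL5A1 encodes a chain of type V collagen, which sits inside type I fibrils and controls their start and width. COL8A1 encodes a chain of type VIII collagen, a short-chain collagen that forms networks and is made by vascular and activated mesenchymal cells. COL15A1 encodes the chain of type XV collagen, which lies at the basement membranes of muscle cells and capillaries and carries an endostatin-like end. The type I partner chain COL1A1 is not analysed here.

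The arrays were alike, with correlations across probe sets between 0.981 and 0.994. Markers of heart muscle cells lay high on all arrays: the mean of 12 such genes was between 13.81 and 13.94 in untreated, 13.83 and 13.91 in low-dose and 13.89 and 13.94 in high-dose animals. For actin, the excess of the 3' over the 5' control probe set, which grows as RNA degrades, was 4.88 to 5.26 log2 units in untreated, 5.48 to 6.04 in low-dose and 4.92 to 5.18 in high-dose animals. It was thus larger in every low-dose animal than in any other, while the untreated and high-dose ranges overlapped. The same excess did not set the low-dose animals apart from untreated ones for GAPDH (1.32 to 1.62, against 1.09 to 1.65) or EF1A (2.82 to 3.69, against 2.69 to 3.19). In high-dose animals it was 1.10 to 1.17 for GAPDH, below every low-dose animal. For EF1A it was 2.76 to 2.98 there, which overlapped the low-dose range. The part of RNA quality in the differences between high and low dose was not tested. Untreated replicate 2 and low-dose replicate 1 carried neighbouring tag numbers, as did both high-dose animals, and untreated replicates 1 and 3; what the tag series stands for is not given in the sources used here. In whole tissue, fewer cells of a type and less RNA per cell cannot be told apart.

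Of the 14 probe sets, 6 had a mean above the median of the arrays (5.37), at least 1 for each gene, and the results below turn on these. The other 8 lay between 3.32 and 4.58, 2 of them below the arrays' lower quartile of 3.78, which was taken as close to background. The level of a probe set depends on its own probes, so levels were not compared between genes. At the high dose 4 of the 5 genes were lower than in untreated animals on their brightest probe set, by 0.19 to 1.09 log2 units, and COL3A1 was higher by 0.83. Among all genes with a brightest probe set above the array median, 48.3% were lower in that comparison.

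**Figure D1:**
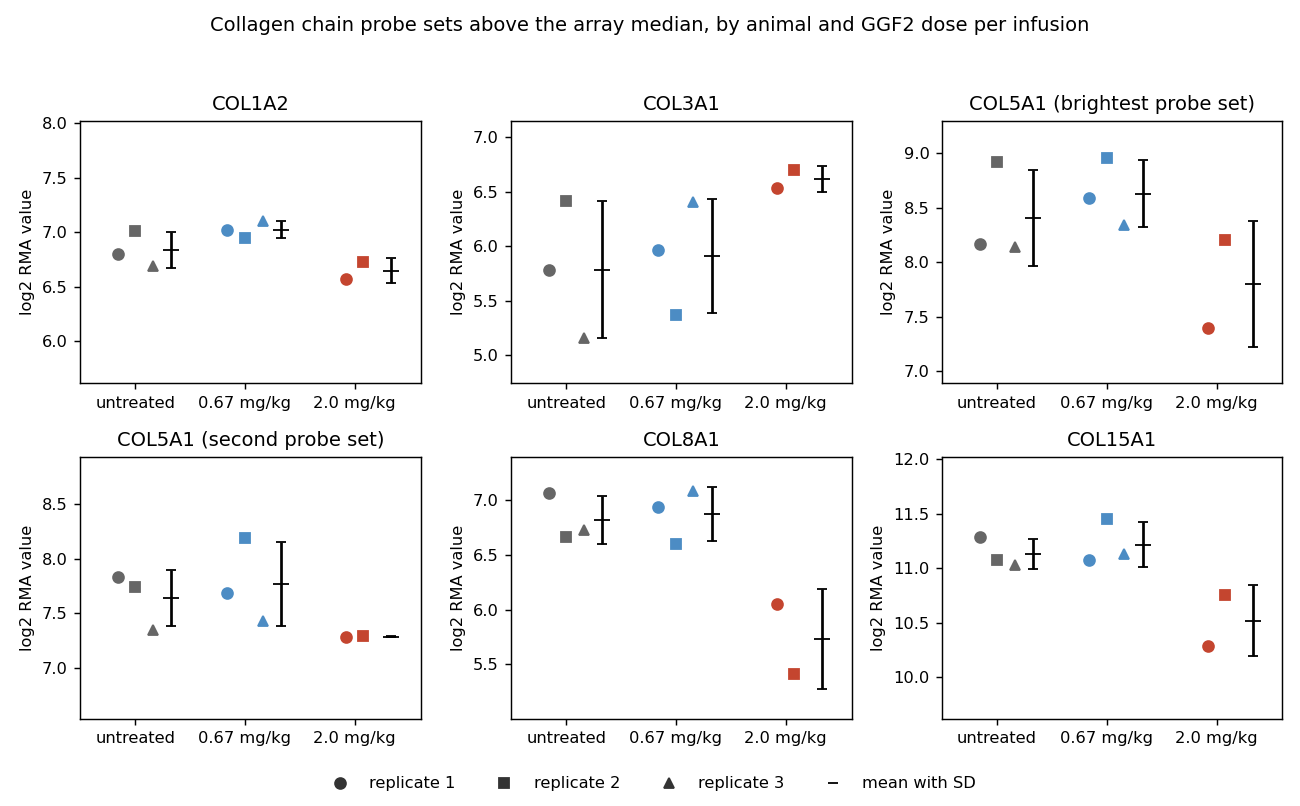
Log2 RMA values (vertical axis, each panel spanning the same range) of the 6 collagen chain probe sets above the array median, by GGF2 dose per infusion; points are animals, shaped by replicate number, and the bars give the group mean with SD (n = 3, 3 and 2). Both high-dose animals lie below all others for COL8A1, COL15A1 and the second COL5A1 probe set and above all others for COL3A1.

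On its brightest probe set COL8A1 was lower at the high dose. There the untreated animals measured 7.07, 6.66 and 6.73, the low-dose animals 6.94, 6.60 and 7.09, and the high-dose animals 6.05 and 5.41. Untreated and low-dose animals overlapped throughout, and both high-dose animals lay below all 6 of them. The group means were 6.82 ± 0.22 (SD, n = 3), 6.88 ± 0.25 (n = 3) and 5.73 ± 0.45 (n = 2). The high dose differed from untreated by -1.09 ± 0.23 log2 units (SE), a signal 0.470 times the untreated one, and from the low dose by -1.15 ± 0.23. The difference from untreated stayed between -0.77 and -1.41 when any 1 array was left out, the ends of that range being set by which high-dose animal was left out. Without high-dose replicate 2 COL8A1 was at -0.77, COL5A1 at -1.01 and COL15A1 at -0.84, so the order of the chains by size depended on that animal.

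The other 3 COL8A1 probe sets were dim, with means of 4.40, 4.31 and 3.37, and did not follow the brightest one. Their high-dose differences were -0.06, -0.09 and 0.20 log2 units. The dimmest lay below the lower quartile, which was taken as close to background. On it both high-dose animals (3.54 and 3.57) lay above all others. The description of COL8A1 therefore rests on 1 probe set, and the mean of its 4 probe sets differed by -0.26.

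COL15A1 was measured by 1 probe set, brighter than 97.3% of all probe sets. It measured 11.29, 11.08 and 11.03 in untreated animals, 11.07, 11.45 and 11.13 at the low dose, and 10.29 and 10.75 at the high dose. As with COL8A1, the untreated and low-dose animals overlapped and both high-dose animals were below them. The means were 11.13 ± 0.14 (SD, n = 3), 11.22 ± 0.20 (n = 3) and 10.52 ± 0.33 (n = 2). The high dose differed from untreated by -0.61 ± 0.18 log2 units (SE), 0.655 times the untreated signal, and from the low dose by -0.70 ± 0.18. Without high-dose replicate 1 the difference from untreated was -0.38. The high-dose animal with the lower COL15A1 value was the one with the higher COL8A1 value, so the 2 chains did not rank these 2 animals alike.

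COL5A1 had 2 probe sets above the array median. The brightest measured 8.17, 8.91 and 8.14 in untreated animals, 8.59, 8.96 and 8.34 at the low dose, and 7.39 and 8.21 at the high dose. Only high-dose replicate 1 was below all other animals here; high-dose replicate 2 lay inside the untreated range. The means were 8.41 ± 0.44 (SD, n = 3), 8.63 ± 0.31 (n = 3) and 7.80 ± 0.58 (n = 2), and the high dose differed from untreated by -0.61 ± 0.32 (SE). The animals within a group differed by up to 0.82 log2 units, more than that difference. It was -0.20 without high-dose replicate 1, -1.01 without high-dose replicate 2 and -0.35 without untreated replicate 2. The difference from the low dose was -0.83 ± 0.32, or -0.42 without high-dose replicate 1.

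The second COL5A1 probe set measured 7.83, 7.74 and 7.35 in untreated animals, 7.68, 8.19 and 7.43 at the low dose, and 7.28 and 7.29 at the high dose. The high-dose animals were the lowest, but by a margin smaller than the spread within the other groups, and the difference from untreated was -0.36 ± 0.23 (SE). The other 4 COL5A1 probe sets, with means between 4.05 and 4.58, had high-dose differences of -0.32, 0.03, 0.07 and 0.21. The 6 probe sets of this gene thus gave 3 differences below 0 and 3 above it, with the higher ones all among the dim probe sets, and their mean differed by -0.16.

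COL1A2 differed least. Its brighter probe set measured 6.80, 7.01 and 6.69 in untreated animals, 7.02, 6.94 and 7.10 at the low dose, and 6.57 and 6.73 at the high dose. High-dose replicate 2 lay inside the untreated range, and both high-dose animals lay below the low-dose ones. The means were 6.83 ± 0.16 (SD, n = 3), 7.02 ± 0.08 (n = 3) and 6.65 ± 0.11 (n = 2), a high-dose difference from untreated of -0.19 ± 0.13 (SE) and from the low dose of -0.37 ± 0.13. The difference from untreated was -0.10 without untreated replicate 2 and -0.11 without high-dose replicate 1. The other COL1A2 probe set, with a mean of 3.32, was below the lower quartile and at -0.06.

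COL3A1 went the other way on its 1 probe set. It measured 5.79, 6.42 and 5.16 in untreated animals, 5.96, 5.37 and 6.41 at the low dose, and 6.53 and 6.70 at the high dose. Both high-dose animals were above all others, yet untreated replicate 2 (6.42) and low-dose replicate 3 (6.41) came close to the lower of them (6.53). The means were 5.79 ± 0.63 (SD, n = 3), 5.91 ± 0.52 (n = 3) and 6.62 ± 0.12 (n = 2). The high dose differed from untreated by 0.83 ± 0.38 (SE), 1.78 times the untreated signal, and by 0.51 without untreated replicate 3. It differed from the low dose by 0.70 ± 0.38, and by 0.43 without low-dose replicate 2. The untreated animals alone spanned 1.26 log2 units. The probe set was brighter than 58.7% of all probe sets, and it was the only one for COL3A1.

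**Figure D2:**
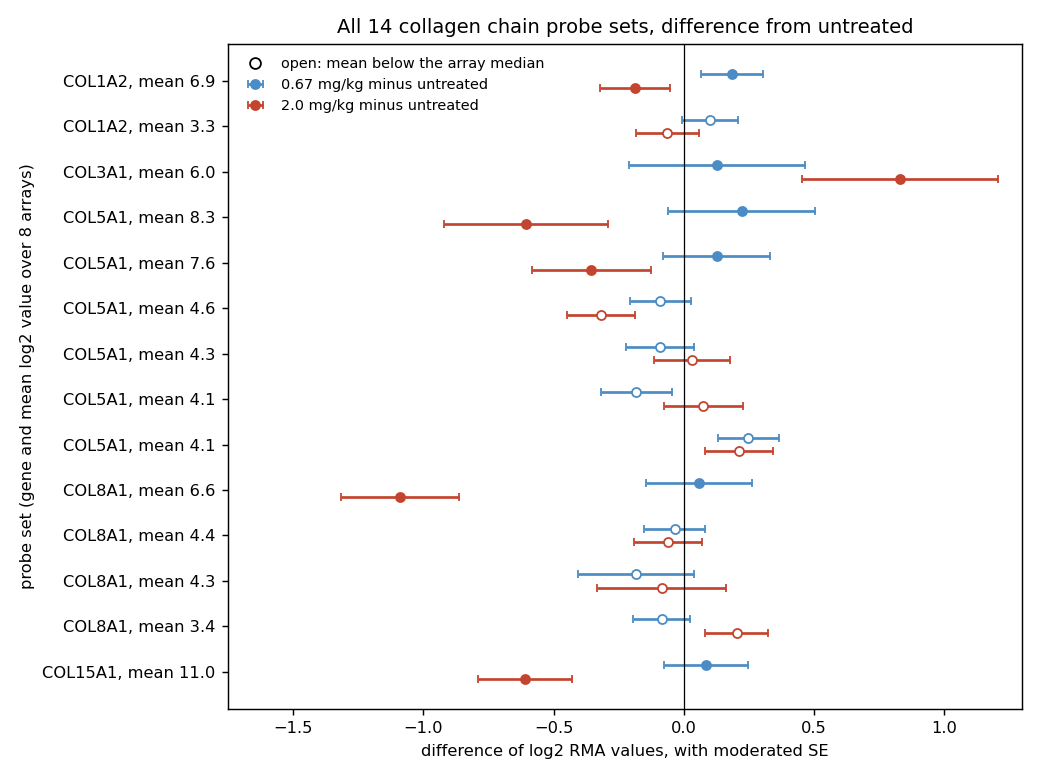
Difference of log2 RMA values from untreated animals (horizontal axis, with moderated SE) for all 14 collagen chain probe sets, labelled by gene and mean log2 value (vertical axis); blue is the low dose, red the high dose, and open points have a mean below the array median. The low-dose differences lie between -0.18 and 0.25, and the high-dose differences of the 6 filled points run from -1.09 for COL8A1 to 0.83 for COL3A1.

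Counted over the 6 probe sets above the array median, 3 lay lower at the high dose than in untreated animals with no overlap between the groups (COL8A1, COL15A1 and the second of COL5A1), and 1 lay higher (COL3A1). Of all 11999 probe sets above the median, 15.2% lay lower and 14.4% higher in this way. Against the low dose, 5 of the 6 lay lower with no overlap and 1 higher, beside 16% and 13.7% of all. These 2 comparisons share the high-dose animals, and the genes were chosen with them known, so nothing is read from these shares. No probe set on the array passed limma's test for high dose against untreated (0 of 23999, 0%, at an adjusted p under 0.05; 1913 or 7.97% had an unadjusted p under 0.05). For high dose against low dose 6 passed (0.025%; 2455 or 10.2% unadjusted), none of which carried a gene symbol.

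Whether the smaller dose changed the collagen chains was addressed by setting the low-dose animals against the untreated ones. On the brightest probe set all 5 genes were slightly higher at the low dose, with differences of 0.19 ± 0.12 (SE) for COL1A2, 0.13 ± 0.34 for COL3A1, 0.22 ± 0.28 for COL5A1, 0.06 ± 0.20 for COL8A1 and 0.09 ± 0.16 for COL15A1. None passed limma's test over all probe sets, each with an adjusted p = 0.998, and 0 of the 14 probe sets had an unadjusted p under 0.05. On the array as a whole 0% passed (0 of 23999) and 4.5% had an unadjusted p under 0.05. Of the 6 probe sets above the array median, 0 lay apart from untreated in either direction, beside 3.76% lower and 4.99% higher among all such probe sets. The shared direction was not steady: without 1 animal or another COL3A1, COL8A1 or COL15A1 turned to the lower side, and 52.6% of all genes above the median were lower in this comparison. The mean of 4 mesothelial markers was 4.97 to 5.25 in low-dose animals against 4.31 to 4.57 in untreated ones. KRT8, the only 1 of them above the array median, was higher by 2.21 (limma adjusted p = 0.795). Of the 4 genes 3 were higher and 1 lower, with a median of 0.32. The part of this list in the collagen values was not tested. The low-dose animals also had the larger actin excess, whose part in these values was not tested.

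For the mean of both doses against untreated, the differences were -0.52 for COL8A1, -0.26 for COL15A1, -0.19 for COL5A1, 0.00 for COL1A2 and 0.48 for COL3A1, in log2 units. COL5A1 turned to 0.062 without untreated replicate 2 and to 0.012 without high-dose replicate 1. COL15A1 was at -0.15 without high-dose replicate 1, and COL3A1 at 0.16 without untreated replicate 3 and 0.79 without untreated replicate 2. Of the 6 probe sets above the median 0 lay apart from untreated in either direction, beside 1.17% lower and 1.39% higher of all. No probe set on the array passed in limma (0%; 1160 or 4.83% unadjusted).

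The remaining collagen chains on the array numbered 10 genes of 39 listed, 5 of them with a brightest probe set above the array median. COL6A3, a chain of the beaded filaments of type VI collagen around cells, measured 10.11, 10.56 and 9.70 in untreated animals, 10.29, 10.31 and 9.58 at the low dose and 9.44 and 9.44 at the high dose. Both high-dose animals were below all others, and the difference from untreated was -0.69 ± 0.28 (SE; limma adjusted p = 0.595). COL4A2, a chain of the type IV network of basement membranes, differed by -0.39 ± 0.25 (limma adjusted p = 0.759). COL5A3, another type V chain, differed by -0.32 ± 0.21 (limma adjusted p = 0.769), or -0.20 without untreated replicate 2, with 0.30 and 0.17 on its 2 dimmer probe sets. The other 7 chains (COL6A2, COL2A1, COL5A2, COL10A1, COL17A1, COL7A1 and COL11A1) lay between -0.04 and 0.22. Over all 10 genes 5 were lower and 5 higher, with a median of 0.00, against 0.02 for all named genes, and 0 passed in limma. Of the 5 above the array median 4 were lower, beside 48.3% of all such genes. Their median was -0.32, against 0.01 for all genes above it.

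Genes that fold and modify collagen inside the cell did not share one direction. Of 11 measured, 6 were lower and 5 higher at the high dose, the median was -0.11 and 0 passed in limma. The galactosyltransferase COLGALT1, which puts sugar on collagen hydroxylysines, was at -0.40 ± 0.14 (SE; limma adjusted p = 0.519). The prolyl hydroxylase subunit P4HA2 was at -0.39 ± 0.19, with 0.07 on its dimmer probe set, and CRTAP, part of the prolyl 3-hydroxylation complex, was at -0.25 ± 0.12, or -0.16 without high-dose replicate 1. HSPA5, a general chaperone of the endoplasmic reticulum, was at 0.43 ± 0.17 (limma adjusted p = 0.574), with 0.16 when high-dose replicate 2 was left out and 0.70 when replicate 1 was. SERPINH1, the chaperone dedicated to procollagen, was at -0.12.

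Of 6 genes measured that act on procollagen after its release, 5 were lower, with a median of -0.61, and 0 passed in limma (smallest adjusted p = 0.438). SPARC, a matrix protein that binds fibrillar collagen, measured 13.40, 13.60 and 13.08 in untreated animals and 12.17 and 12.85 at the high dose, a difference of -0.85 ± 0.26 (SE), or -0.51 without high-dose replicate 1. Its second probe set (mean 5.69) gave -0.01. LOXL1, a lysyl oxidase that cross-links matrix fibres, was at -0.88 ± 0.34, or -0.40 without high-dose replicate 1 and -1.36 without replicate 2. PCOLCE2, which speeds the trimming of procollagen ends, was at -1.01 ± 0.51, and at -0.49 without untreated replicate 2, the highest animal for it, or -0.63 without high-dose replicate 1. BMP1, the protease that trims them, was at -0.36 ± 0.21, at -0.16 without untreated replicate 1, and at 0.06 on its dimmer probe set. LOX itself, the founding lysyl oxidase, was at -0.04 on a probe set below the array median.

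Matrix proteins that sit on or beside collagen fibrils were lower in all but 1 case. Of 17 measured, 16 were lower at the high dose with a median of -0.73, and 10 of the 16 above the array median lay below the untreated animals with no overlap, beside 14.1% of all genes above the median. None passed in limma, the smallest adjusted p being 0.104, that of periostin (POSTN), at -2.45 ± 0.33 (SE). Like the other lists, this one was chosen with earlier results of these data known, so nothing is read from its share and p-values. The microfibril protein FBN1 was at -1.39 ± 0.22, the proteoglycan VCAN at -1.60 ± 0.41, with -1.36 on its second probe set, and lumican (LUM), which sets fibril spacing, at -0.90 ± 0.20. The remaining VCAN probe sets, with means of 4.30, 3.68 and 2.75, gave -0.01, -0.47 and 0.08. The dim second POSTN probe set (mean 2.91) gave -0.04. THBS1 was the 1 member on the higher side, at 0.91. At the low dose the same list had a median of -0.05.

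**Figure D3:**
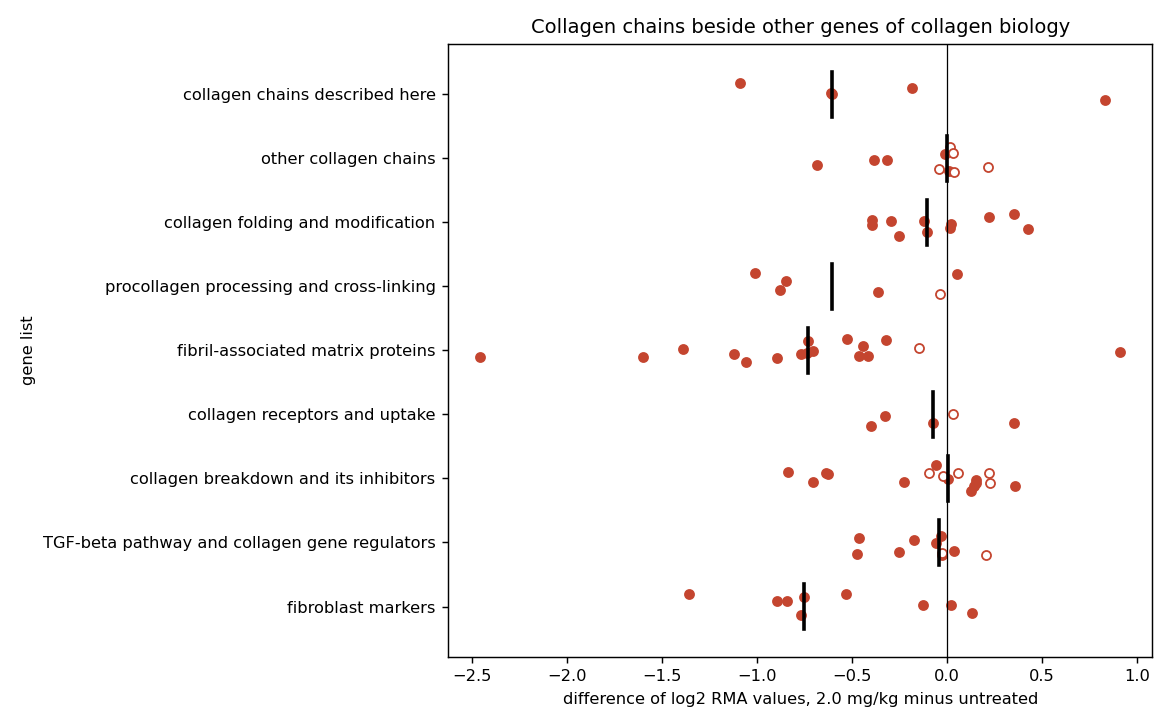
Difference of log2 RMA values between high-dose and untreated animals (horizontal axis) for each measured gene of 9 lists (vertical axis), 1 point a gene on its brightest probe set, open where the mean lies below the array median; black bars are list medians. The medians are -0.61 for the 5 collagen chains described here, 0.00 for other chains, -0.73 for fibril-associated proteins and -0.75 for fibroblast markers. The 5 of the 10 other chains above the array median have a median of -0.32.

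Collagen receptors, breakdown enzymes and regulators gave smaller list medians. Of 5 receptor and uptake genes 3 were lower, with a median of -0.07: the integrin subunit ITGB1 was at -0.40 ± 0.14 (SE), the collagen III receptor ADGRG1 at -0.33 ± 0.16, with -0.18 on its dimmer probe set, the capillary morphogenesis protein ANTXR2 at -0.07 ± 0.15 and the discoidin receptor DDR1 at 0.35 ± 0.18. Of 17 breakdown genes and inhibitors 8 were lower, with a median of 0.00. The membrane protease FAP, made by activated fibroblasts, was at -0.84 ± 0.19, the gelatinase MMP2 at -0.63 ± 0.26, and the cathepsins CTSK and CTSS at -0.71 ± 0.30 and -0.64 ± 0.23. Of 10 genes of the TGF-beta pathway and collagen gene regulation 8 were lower, with a median of -0.05, and 5 were lower without untreated replicate 1. The receptor TGFBR1 was at -0.47 ± 0.13, with values near 0 on its 2 probe sets below the lower quartile, and the pseudoreceptor BAMBI was at -0.46 ± 0.22, with 0.09 on its second probe set. SMAD4 was at -0.17 ± 0.15 and the transcription factor SP1, on a dim probe set, at 0.20 ± 0.14. Without high-dose replicate 1 BAMBI was at -0.13, CTSS at -0.35 and ITGB1 at -0.22. Without untreated replicate 2 CTSK was at -0.46 and MMP2 at -0.39. BAMBI was at -0.80 and SMAD4 at -0.098 without high-dose replicate 2, and ANTXR2 turned to 0.036 without untreated replicate 1. In these 3 lists 0 genes passed in limma, with smallest adjusted p of 0.519, 0.337 and 0.4.

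Markers of fibroblasts, the main makers of fibrillar collagen, were set beside the chains. Of 9 measured, 7 were lower at the high dose, with a median of -0.75. The list mean was 9.37 to 10.15 in untreated animals, 9.52 to 10.24 at the low dose and 8.98 to 9.40 at the high dose, so the ranges of untreated and high-dose animals overlapped narrowly. THY1, a fibroblast surface protein, was at -1.36 ± 0.27 (SE; limma adjusted p = 0.26), with -0.93 and 0.02 on dimmer probe sets. Decorin (DCN) was at -0.77 ± 0.28, or -0.46 without high-dose replicate 1, vimentin (VIM) at -0.75 ± 0.30 and the fibroblast transcription factor TCF21 at 0.13. DCN and LUM stand in both the fibroblast and the fibril list. The part of fibroblast content in the collagen values was not tested.

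Other cell types that make some of these chains were looked at in the same way. Of 12 endothelial markers 8 were lower at the high dose, with a median of -0.07. The list mean was 6.57 to 6.68 in untreated, 6.37 to 6.72 in low-dose and 6.37 to 6.61 in high-dose animals, and KDR was below the lower quartile. Of the 9 above the array median 7 were lower, with a median of -0.39. PECAM1 was at -0.57 and TEK at -0.53, while VWF was at -0.08. The 4 higher ones were ENG (0.27), FLT1 (0.26), ESAM (0.17) and TIE1 (0.11), with FLT1 and TIE1 below the array median. Of 8 smooth muscle and pericyte markers 4 were lower and 4 higher, with a median of -0.01. CNN1, at 1.99, was 1 of the higher ones. The list means were 8.95 to 9.66, 9.64 to 10.02 and 9.44 to 9.52 in the 3 groups. Of 11 macrophage markers 9 were lower with a median of -0.52, and the list mean was 6.74 to 7.13 in untreated, 6.71 to 7.23 in low-dose and 6.33 to 6.42 in high-dose animals, with no overlap of the last with the others. CTSS stands in both the macrophage list and the breakdown list. The part of these cell types in the collagen values was not tested.

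Of 12 markers of heart muscle cells 2 were lower at the high dose, with a median of 0.04. Lymphocyte markers all lay below the array median, with a median difference of -0.01 over 10 genes. Adipocyte markers had a median of -0.06 over 5 genes, Schwann cell and nerve markers -0.18 over 5, mesothelial markers 0.22 over 4 and erythrocyte markers -0.49 over 3. Only 2 of the Schwann cell and nerve, 1 of the mesothelial and 1 of the erythrocyte markers lay above the array median. That mesothelial marker was at 0.57 and that erythrocyte marker at 0.12. In all these lists 0 genes passed in limma for high dose against untreated.

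For each chain the 5 genes with the most similar pattern were found by Pearson correlation over the 8 arrays, among the brightest probe sets of 6092 other genes above the lower quartile. The arrays share the 3 dose groups, so such a correlation holds both the dose difference and the variation between animals; r after removing group means is given beside it. Both are descriptions with no p-value.

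For COL5A1 the nearest genes included 2 matrix genes. They were tenascin-X (TNXB, r = 0.973), a matrix protein that binds collagen fibrils, the transmembrane protein PLXDC2 (0.964), the microfibril protein MFAP5 (0.964), the sulfhydryl oxidase QSOX1 (0.963) and the actin-nucleating subunit ARPC1B (0.955). With group means removed r was 0.963, 0.954, 0.976, 0.958 and 0.937. Untreated replicate 2 and low-dose replicate 2 were the 2 highest animals for COL5A1, and high-dose replicate 1 the lowest.

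For COL1A2 the nearest genes were the splicing factor SRSF11 (r = 0.970), the receptor NOTCH4 (0.947), PTMA (0.937), FKBP10 (0.922), a collagen-folding chaperone, and the WNT receptor FZD4 (0.920). FKBP10 was at -0.29 at the high dose and 0.29 at the low dose, and its r with group means removed was 0.821. For COL15A1 they were the glycosyltransferase B3GNT3 (0.989), MAP2 (0.967), the RNA polymerase subunit POLR2B (0.966), the G protein subunit GNAI2 (0.961) and the endothelial receptor TEK (0.960). With group means removed r was between 0.873 (GNAI2) and 0.972 (B3GNT3) for the genes nearest to COL15A1, and 0.910 for TEK.

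COL8A1 and COL3A1, like COL1A2 and COL15A1, had no gene of a matrix protein among their nearest. For COL8A1 they were KLHDC3 (r = 0.977), TTLL1 (0.959), MTA2 (0.952), WARS2 (0.945) and HINT1 (0.937). With group means removed their r was between 0.730 (HINT1) and 0.892 (KLHDC3). For COL3A1 they were GADD45A (0.962), a gene induced by stress and growth arrest, the deubiquitinase USP2 (0.954), the antiproliferative gene BTG1 (0.948), YWHAZ (0.934) and SPTY2D1 (0.929). All 5 were higher at the high dose, by 0.45 to 1.21 log2 units, and r with group means removed was between 0.926 and 0.954. In COL3A1 the 2 lowest animals were untreated replicate 3 and low-dose replicate 2, and the latter was the highest animal for COL15A1 and for both COL5A1 probe sets.

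**Figure D4:**
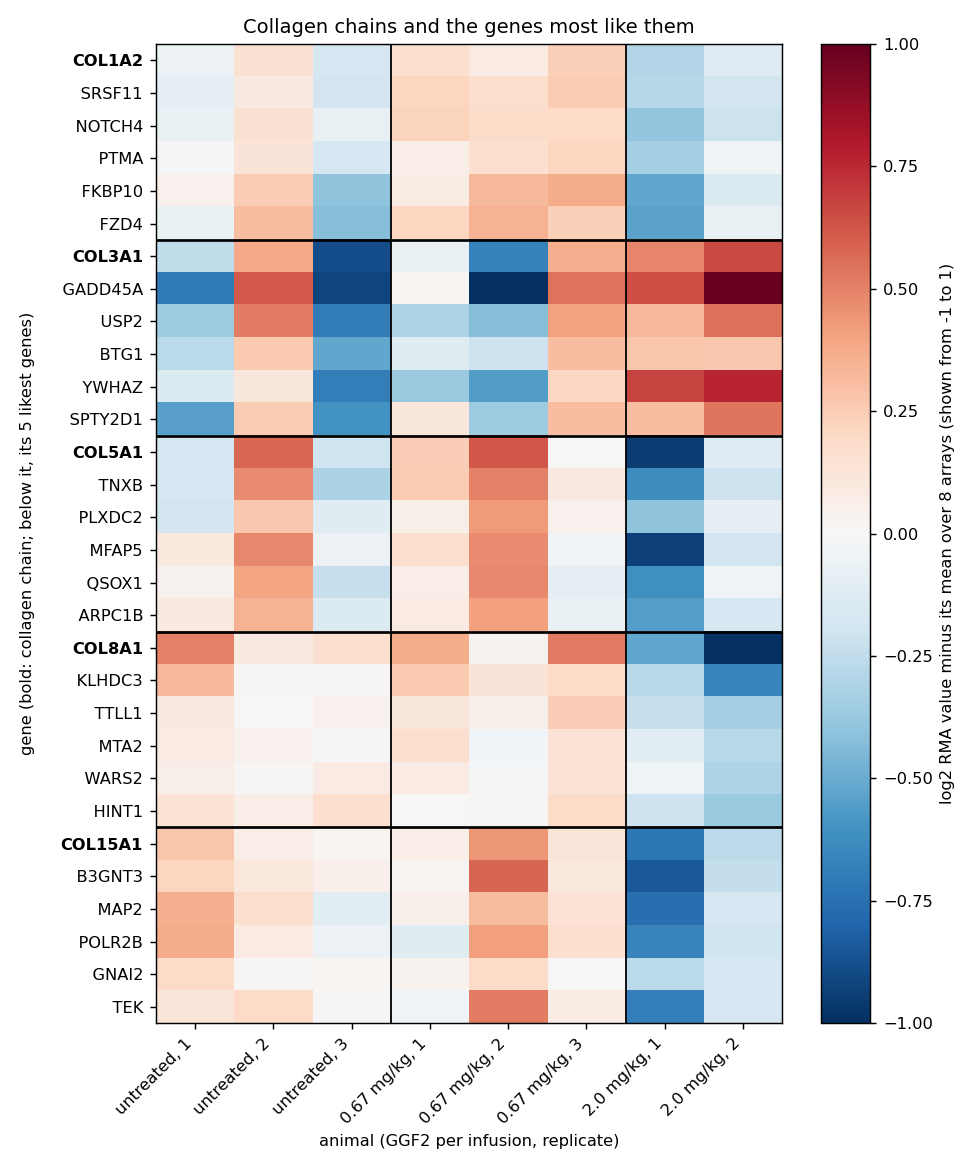
Log2 RMA value minus its mean over the 8 arrays (colour, shown from -1 to 1) for the 5 collagen chains (bold) and, under each, its 5 most similar genes (vertical axis), by animal (horizontal axis, GGF2 per infusion and replicate). COL3A1 is highest in the 2 high-dose animals and lowest in untreated replicate 3 and low-dose replicate 2, while COL5A1, COL15A1 and COL1A2 are lowest in high-dose replicate 1 and COL8A1 in high-dose replicate 2.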

How the data were processed

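One Affymetrix porcine genome array was run for each of 8 pigs, from Trizol-extracted RNA per the labels' protocols. The deposited table holds log2 values of 24123 probe sets. RMA and Partek 6.6 are named in the submitters' processing notes; how they were set is not given in those sources. RMA makes array distributions alike, so a change shared by most genes would be removed. Depth does not apply to arrays, whose number limits the precision. Groups follow the treatment label; replicate numbers follow sample order and pair nothing.

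The 124 control probe sets were left out. Symbols came from the platform annotation: 10069 probe sets had 1 symbol, 198 several and 13732 none. limma 3.58.1 in R 4.3.3 fitted 3 group means to all 8 arrays (5 residual and 3.5 prior degrees of freedom), with Benjamini-Hochberg adjustment over 23999 probe sets and a threshold of 0.05; it was tested on simulated data. A gene is represented by the probe set with the highest mean. Named genes are all members, every other collagen chain and 5 likest genes per member. From each collagen list come up to 4 genes with the smallest p in high dose against untreated. SERPINH1, LOX, THBS1, TCF21, PECAM1, TEK, VWF, KDR, ENG, FLT1, ESAM, TIE1, CNN1 and KRT8 were added after their values were seen. The members and lists were chosen with earlier results of these data known. Alternatives were an intensity trend, a filter on dim probe sets, renewed quantile normalization, median subtraction, averaging all probe sets of a gene, leaving out the 2 animals with neighbouring tag numbers in different groups, and leaving out each array. Gene order in the Sscrofa11.1 RefSeq table was used only to name neighbouring genes; no sequence was used.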

Additional observations from a re-analysis of the deposited data

How the results depend on the processing

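No probe set of the 5 genes passed for low dose against untreated under any alternative run. The count of the 5 genes that were lower at the high dose, against untreated or low dose, was 4 under every alternative. Those included leaving out each array in turn. The genes were chosen with the high-dose values known, so nothing is read from the steadiness of that count. The sizes were not steady. With all probe sets of a gene averaged, the difference from untreated was -0.26 for COL8A1, -0.16 for COL5A1 and -0.12 for COL1A2. For low dose against untreated, 0 genes were lower; this became 1 without the 2 animals with neighbouring tag numbers and 1 when all probe sets of a gene were averaged, and ranged from 0 to 2 over the arrays left out. There COL8A1 turned to -0.0522 without the tag-neighbouring animals and ranged from -0.0482 to 0.194 over the arrays left out (-0.0213 without untreated replicate 2, the lowest without low-dose replicate 3). COL3A1 ranged from -0.189 (untreated replicate 3 left out) to 0.441, with -0.121 when low-dose replicate 3 was left out, and COL15A1 from -0.0304 (low-dose replicate 2 left out) to 0.164. Over all alternatives the smallest adjusted p of the 5 genes in this comparison was 0.784 in limma. For the mean of both doses, 4 genes were below 0, 1 of them COL1A2 by a negligible amount (-0.000393), 2 without the tag-neighbouring animals, and 2 to 4 over the arrays left out. At the high dose ANTXR2 ranged from -0.194 to 0.036 over the arrays left out, the latter without untreated replicate 1.

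Over all probe sets, passing counts for high dose against untreated were 4 with an intensity trend, 9 after renewed quantile normalization, 3 after median subtraction, 55 without the tag-neighbouring animals and 0 to 19 over the arrays left out (19 without untreated replicate 2), against 0. For high against low dose they were 1 without dim probe sets, 12 without the tag-neighbouring animals and 0 to 7 over the arrays left out, against 6. Without the tag-neighbouring animals 1 passed for low dose and 1 for the mean of both doses, against 0 each. The causes were not tested. No paired analysis was possible because the labels give no replicate numbers. With 2 high-dose animals, 1 animal sets much of each high-dose value.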

Other observations

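In the order of genes in the Sscrofa11.1 assembly, 2 of the chains had a neighbour of the collagen lists. COL5A2, next to COL3A1, encodes another fibrillar chain and was at 0.03 at the high dose (mean level 4.93), where COL3A1 was at 0.83. TGFBR1, next to COL15A1, was at -0.47, where COL15A1 was at -0.61. The neighbours of COL1A2 were at -0.06 (BET1) and -0.04 (CASD1), that of COL8A1 at 0.32 (DCBLD2), and those of COL5A1 at 0.01 (RXRA) and 0.38 (FCN2), the latter 2 on probe sets below the array median. These neighbours were looked up after the chains' values were seen, and nothing was tested.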
